A study of Homo sapiens with 12 samples.

Results

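GNB4, HIPK3, SNX15, POGLUT3 and DPYSL3 are 5 genes whose mRNA was among the most lowered after siLARP4B in both cell lines of the study. They were chosen by their fall in fragment counts after siLARP4B against siControl, out of 26464 gene symbols in the tables and 15683 that passed the filter on low counts; all 5 passed it. For each gene, the annotated transcript model on chromosomes 1 to 22 or X with the highest fragment total was taken. The size of that fall is therefore given below as a description, with no p-value. The comparisons with siLARP4A and between the lines were not used to choose them and were tested.

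The libraries come from PC3, an established human prostate adenocarcinoma line, and MG63, an established human osteosarcoma line, both labelled wild type. Each line received siRNA at 10 nM with Lipofectamine RNAiMAX and was harvested after 72 h for poly(A)-selected RNA sequencing. Non-targeting siRNA (siControl), siRNA against LARP4A (siLARP4A) and siRNA against LARP4B (siLARP4B) gave 6 groups of 2 libraries. The design text counts 2 biological replicates per condition and also speaks of duplicate analyses without saying what these were, so p-values measure only the spread between these libraries. Every group was transfected, and no untransfected cells were analysed here. The gene of LARP4A carries the symbol LARP4. The siRNA sequences, and how many were used against each gene, are not given in the sources used here.

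Library totals ranged from 16950119 to 24864977 fragments. The epithelial keratins KRT8, KRT18 and KRT19 lay at 203 FPKM or more in every PC3 library, and the collagen COL1A1 at 719 FPKM or more in every MG63 library. FPKM is the fragment count scaled to the library total and to the length of the mRNA. The bone markers RUNX2 and ALPL stayed at or below 1.08 FPKM in MG63, and the leukocyte gene CD3E was at 0 in all 12 libraries. The endothelial marker CDH5 was at 1.96 to 6.47 FPKM in MG63 and at most 0.0397 in PC3; PECAM1 stayed at or below 0.577 in both lines. LARP4 was lowered by siLARP4A, from means of 19.2 to 2.41 FPKM in PC3 and from 8.34 to 2.15 in MG63 (adjusted p = 2.2e-18 and 4.4e-14, edgeR).

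LARP4A and LARP4B, a pair of related proteins, bind mRNA and poly(A)-binding protein, and are known for keeping mRNAs stable; LARP4A is known to prefer poly(A) and LARP4B AU-rich 3′ sequence. An siRNA guide strand, once loaded into Argonaute, cleaves the mRNA it pairs with in full. The same strand can also lower other mRNAs, in the manner of a microRNA, where their 3′ untranslated region (3′ UTR) pairs with the guide's seed at bases 2 to 8. The 3′ UTRs of the 5 genes were therefore read for short words shared with other lowered genes. The words AGGTGAA and GGTTATT are shown in capitals in the sites below because, of 15952 words of 7 bases, genes with these in the 3′ UTR had the lowest median change after siLARP4B in PC3. Those medians left out the 5 genes, LARP4 and LARP4B; the full values follow the genes. Sequences are from GENCODE release 29 transcripts, printed 5′ to 3′ in the sense of the mRNA, with coordinates on GRCh38.

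The intended target, LARP4B, stood at 7.02 and 7.18 FPKM in the PC3 siControl libraries, at 6.69 and 6.97 after siLARP4A and at 1.35 and 1.26 after siLARP4B. In MG63 it stood at 6.64 and 6.77, at 6.95 and 7.04, and at 1.89 and 2.20 FPKM. The log2 fold change after siLARP4B was −2.44 (SE 0.081) in PC3 and −1.70 (SE 0.074) in MG63, with adjusted p = 1.2e-15 and 2.8e-13 by edgeR's quasi-likelihood F-test. In bulk RNA, fewer cells with a transcript and less of it per cell cannot be told apart. Relative to siControl, 18.4% of the LARP4B mRNA remained in PC3 and 30.9% in MG63. The fall was larger in PC3 by 0.75 on the log2 scale (SE 0.114, adjusted p = 4.1e-05, interaction term of the same edgeR fit, which called 26.8% of all genes).

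The LARP4B transcript itself holds AGGTGAA in its coding sequence, in the window chr10:814744-814773, and in its 3′ UTR, in the window chr10:810328-810357, both on the minus strand. It holds GGTTATT in its coding sequence, in the window chr10:825243-825272. Of all 15952 words, 37.7% occur in this transcript, and LARP4 holds both words too. The 3 windows of LARP4B are printed for comparison with those of the 5 genes.
LARP4B coding site of AGGTGAA: gtaaatcggtgcAGGTGAAcggagccgcca
LARP4B 3′ UTR site of AGGTGAA: ctttttaattaaAGGTGAAatacagattgc
LARP4B coding site of GGTTATT: agaggggacctgGGTTATTagaaagtcctt

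GNB4 encodes a beta subunit of heterotrimeric G proteins, which relay signals from receptors at the membrane. The gene lies at chr3:179396088-179451470 on the minus strand. In PC3 it measured 8.06 and 8.02 FPKM in siControl, 6.15 and 5.28 after siLARP4A, and 0.752 and 1.05 after siLARP4B. In MG63 it measured 23.2 and 24.0 FPKM, 17.1 and 16.9, and 5.07 and 5.78. In each line the siLARP4A libraries lay between those of siControl and siLARP4B. After siLARP4B, GNB4 was at 11.1% of siControl in PC3 (log2 fold change −3.17, SE 0.114) and at 23.3% in MG63 (−2.10, SE 0.078). It was thereby the most lowered gene in both lines among those with at least 5 FPKM in siControl, 8282 genes in PC3 and 7785 in MG63. Over all 15683 tested genes it ranked 12th from the lowest in PC3 and 142nd in MG63. Its 3′ UTR of 5124 bases holds AGGTGAA 91 bases from its start, in chr3:179401105-179401134, and GGTTATT at base 227, in chr3:179400969-179400998.
GNB4 3′ UTR site of AGGTGAA: ccttatatttgcAGGTGAAgatttttctat
GNB4 3′ UTR site of GGTTATT: tttgaggggttgGGTTATTttaaccttggt

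HIPK3 encodes a homeodomain-interacting protein kinase, one of a family of nuclear serine/threonine kinases that act on transcription factors. The gene lies at chr11:33257381-33357022 on the plus strand. In PC3 its levels were 5.19 and 5.35 FPKM in siControl, 7.82 and 6.95 after siLARP4A, and 1.25 and 1.23 after siLARP4B. In MG63 they were 5.24 and 5.08 FPKM, 6.90 and 6.52, and 1.401 and 1.87. The siLARP4A libraries were the highest and the siLARP4B libraries the lowest in both lines. HIPK3 was at 23.5% of siControl in PC3 (log2 fold change −2.09, SE 0.106) and at 32.0% in MG63 (−1.64, SE 0.10) after siLARP4B. Its 3′ UTR of 3455 bases holds neither 7-base word. It holds AGGTGA, the first 6 bases of AGGTGAA, 3 times; the copy nearest the stop codon, at base 222, is shown from chr11:33353778-33353807.
HIPK3 3′ UTR site of AGGTGA: gtaactctagacAGGTGActtatgggagca

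SNX15 encodes a sorting nexin, a protein with a phosphoinositide-binding PX domain that works in traffic through endosomes. The gene lies at chr11:65027439-65040572 on the plus strand. In PC3 it measured 11.4 and 11.8 FPKM in siControl, 12.8 and 14.2 after siLARP4A, and 2.71 and 2.91 after siLARP4B. In MG63 it measured 11.96 and 12.2 FPKM, 11.2 and 12.6, and 4.09 and 3.70. In MG63 the siLARP4A libraries lay on either side of siControl, while siLARP4B was well below both. After siLARP4B, SNX15 was at 24.1% of siControl in PC3 (log2 fold change −2.05, SE 0.113) and at 32.7% in MG63 (−1.61, SE 0.104). Its 3′ UTR is short, 780 bases, and holds AGGTGAA once, at base 706, in chr11:65040486-65040515. Of the genes in its bin of 3′ UTR length, one of 10 equal bins, 4.66% hold that word; the share is 39.1% in the bin of GNB4, 17.9% in that of POGLUT3 and 27.3% in that of HIPK3 and DPYSL3.
SNX15 3′ UTR site of AGGTGAA: tgtgacaatgacAGGTGAAatttatatgtg

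SNX15 is also part of a readthrough gene, ARL2-SNX15, which starts at ARL2, a small GTPase gene upstream, and shares the SNX15 end at 65040572. The readthrough model had 18813 fragments over the 12 libraries against 4093 for SNX15, and a fragment in a shared exon counts in both. In the siLARP4B libraries, ARL2-SNX15 fell by 0.49 (log2) in PC3 (adjusted p = 8e-06, edgeR) and by 0.39 in MG63 (adjusted p = 0.00011). Its counts include the fragments of exons shared with SNX15, which was chosen by this contrast. These p-values are therefore no test apart from that choice. ARL2 itself fell by 0.19 in PC3 (adjusted p = 0.022) and by 0.20 in MG63 (adjusted p = 0.017, both edgeR). Of these 3 models, SNX15, which was chosen for its fall in this contrast, fell most in both lines. Only the readthrough overlaps it.

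POGLUT3 encodes a protein O-glucosyltransferase of the endoplasmic reticulum that adds glucose to EGF repeats of secreted and membrane proteins, and is listed as KDELC2 in GENCODE release 29. The gene lies at chr11:108472116-108498384 on the minus strand. In PC3 its levels were 11.7 and 12.2 FPKM in siControl, 13.5 and 11.5 after siLARP4A, and 1.36 and 1.68 after siLARP4B. In MG63 they were 46.3 and 46.6 FPKM, 46.2 and 43.1, and 14.7 and 15.6. In PC3 the siLARP4A libraries lay on either side of siControl, and in MG63 just below it. After siLARP4B, POGLUT3 was at 12.6% of siControl in PC3 (log2 fold change −2.99, SE 0.105) and at 33.0% in MG63 (−1.60, SE 0.068). The 3′ UTR of 2722 bases holds 2 copies of AGGTGAA starting 21 bases apart, at bases 1098 and 1119, in chr11:108473712-108473741 and chr11:108473691-108473720.
POGLUT3 upstream 3′ UTR site of AGGTGAA: tctatattgaatAGGTGAAagataactgta
POGLUT3 downstream 3′ UTR site of AGGTGAA: ataactgtagtcAGGTGAAaggcattcatt

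DPYSL3 encodes CRMP4, a collapsin response mediator protein that binds cytoskeletal proteins and is known from growing axons and from cell migration. The gene lies at chr5:147390808-147510068 on the minus strand. In PC3 it measured 29.3 and 28.9 FPKM in siControl, 36.9 and 33.9 after siLARP4A, and 5.31 and 5.46 after siLARP4B. In MG63 it measured 55.9 and 56.0 FPKM, 80.0 and 81.4, and 23.3 and 21.9. It was the most abundant of the 5 genes per length in every group, and siLARP4A and siLARP4B lay on opposite sides of siControl in both lines. After siLARP4B, DPYSL3 was at 18.4% of siControl in PC3 (log2 fold change −2.44, SE 0.059) and at 40.9% in MG63 (−1.29, SE 0.050). Its 3′ UTR of 3223 bases lacks AGGTGAA but holds GGTTATT at base 369, in chr5:147393649-147393678, and at base 3199, in chr5:147390819-147390848. It also holds AGGTGA once, at base 463.
DPYSL3 upstream 3′ UTR site of GGTTATT: aaaagggacgcaGGTTATTtggggtgagtg
DPYSL3 downstream 3′ UTR site of GGTTATT: taatgtaaacctGGTTATTaaaataactat

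**Figure D1:**
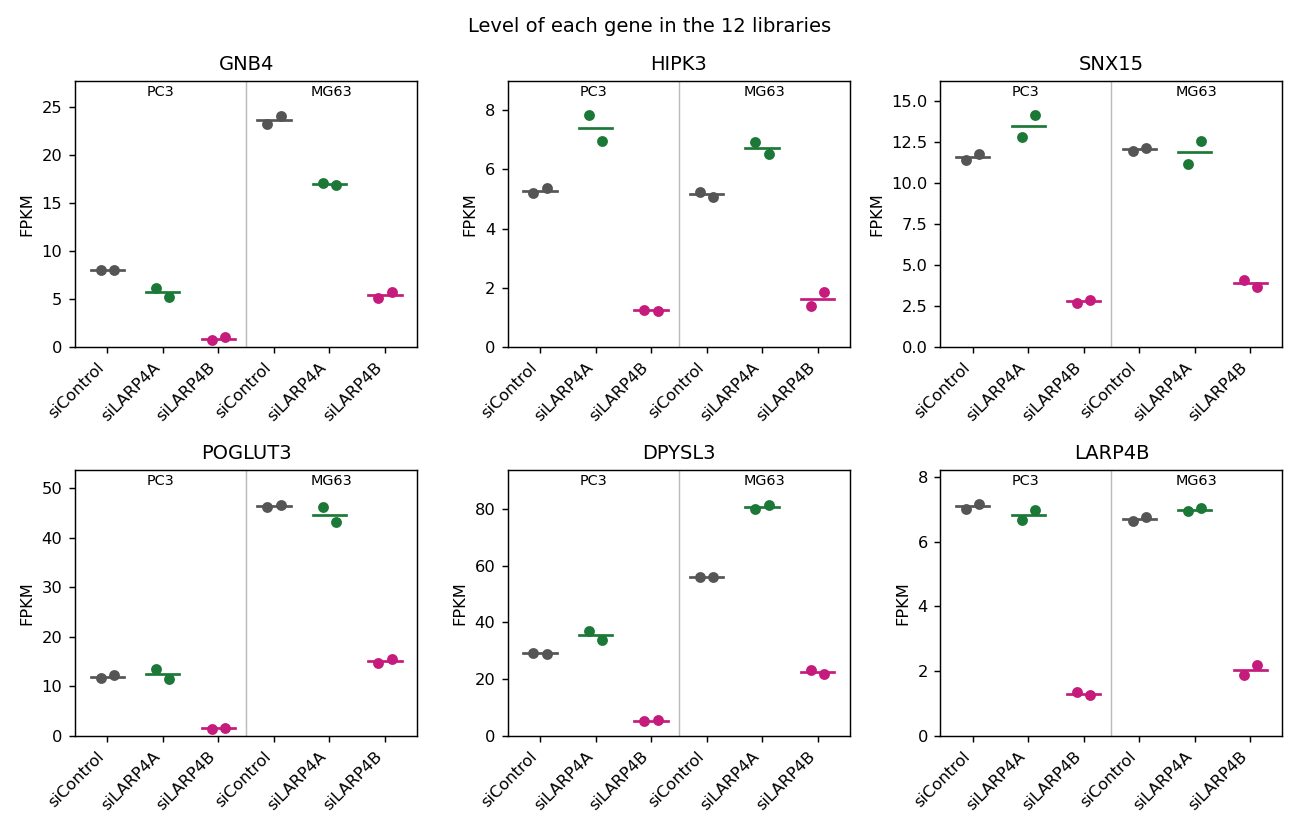
FPKM (vertical axis, starting at 0) of the 5 genes and of LARP4B in the 12 libraries; each point is 1 library and each bar the mean of a group of 2, with PC3 on the left of each panel and MG63 on the right. In every panel the 4 siLARP4B libraries lie below the siControl and siLARP4A libraries of their line.

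In all 5 genes both siLARP4B libraries lay below all 4 other libraries of the same line. Of the 15683 genes tested, 20.9% were called lower in PC3 and 16.9% in MG63 at an adjusted p under 0.05, 8.58% in both, and 0.536% (84 genes) had a log2 fold change of −1 or lower in both. Since this contrast chose the 5 genes, nothing follows from that separation of libraries or from their place in those shares. The share of all genes with libraries separated in the same way was not counted. The median log2 fold change was −2.44 for the 5 genes and 0.04 for all genes in PC3, and −1.61 and −0.003 in MG63.

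Ranked by the weaker of the falls in the lines, over the 6739 genes with at least 5 FPKM in siControl of both, GNB4 came 1st, HIPK3 3rd, SNX15 4th, POGLUT3 5th and DPYSL3 10th. LARP4B came 2nd, so GNB4 was lowered more than the gene the siRNA was aimed at. In PC3 POGLUT3 also lay below LARP4B, and DPYSL3 was level with it, at −2.439 against −2.443. The other genes among the first 10 were EXOSC3, an exosome subunit (−2.30 in PC3, −1.60 in MG63), GALNT7, a mucin-type O-glycosyltransferase (−2.02 and −1.53), MKNK2, a kinase of eIF4E (−1.36 and −1.38), and SRPRA, the signal recognition particle receptor subunit (−1.51 and −1.31). EXOSC3, which is not one of the 5 genes, and POGLUT3, which is, differed in MG63 by less than their errors (−1.596 and −1.598). DPYSL3 came after EXOSC3, GALNT7, MKNK2 and SRPRA, so no step in the values separates the 5 genes from the others. Without the floor of 5 FPKM, over all 15683 tested genes, more genes fell further. Ranks from the lowest then ran from 12 (GNB4) to 117 (SNX15) in PC3 and from 142 (GNB4) to 330 (DPYSL3) in MG63.

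**Figure D2:**
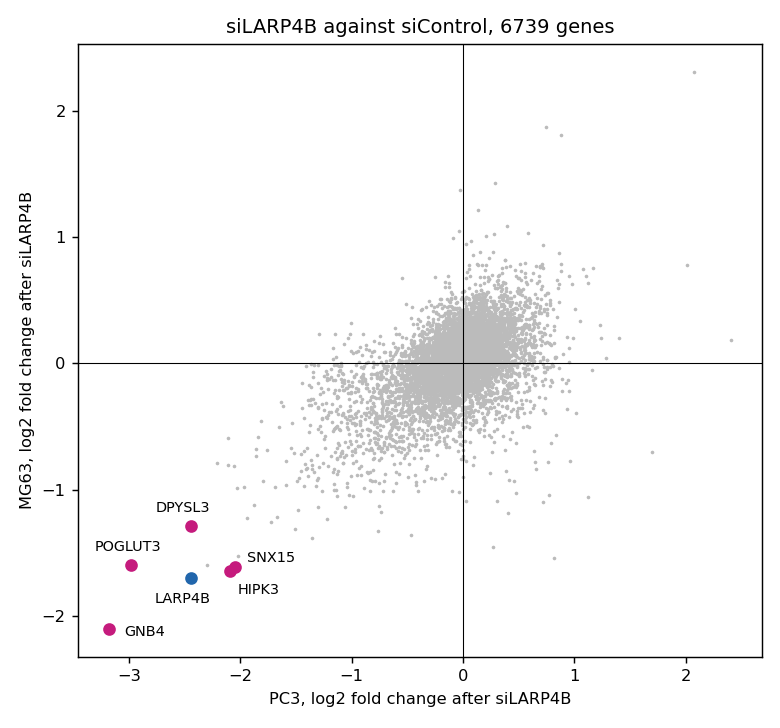
Log2 fold change after siLARP4B in PC3 (horizontal axis) and MG63 (vertical axis) for the 6739 genes with at least 5 FPKM in siControl of both lines; grey points are single genes, pink points the 5 genes and the blue point LARP4B. GNB4 lies at the lower left end, at −3.17 and −2.10, and LARP4B lies among the 5 genes.

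Each of the 5 genes fell further in PC3 than in MG63. The difference between the lines in log2 fold change was −1.39 (SE 0.131) for POGLUT3, −1.15 (SE 0.077) for DPYSL3 and −1.07 (SE 0.148) for GNB4. It was smaller for HIPK3, −0.45 (SE 0.152), and for SNX15, −0.44 (SE 0.161). LARP4B, with −0.75, lay between these groups of genes. These sizes depend on the scale: with limma on log2(FPKM + 1), which shrinks changes at low levels, the difference was −0.32 for GNB4, beside −0.31 for SNX15 and −0.25 for HIPK3, and −0.81 for POGLUT3 and −0.97 for DPYSL3. Single libraries weighed on 2 of them: GNB4 gave −0.843 without PC3 siLARP4B replicate 1 and −1.324 without replicate 2, and HIPK3 gave −0.694 without MG63 siLARP4B replicate 1 and −0.281 without replicate 2. POGLUT3, DPYSL3 and GNB4 also had the higher level in MG63 siControl.

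That basal difference was tested between the siControl groups. POGLUT3 was at 22.7% of its MG63 level in PC3 (log2 fold change −2.14, SE 0.070, adjusted p = 7.8e-18, edgeR quasi-likelihood F-test). GNB4 was at 29.9% (−1.74, SE 0.075, adjusted p = 1.3e-15) and DPYSL3 at 45.8% (−1.13, SE 0.049, adjusted p = 1.6e-15) in the same test. SNX15 was at 84.6% (−0.24, adjusted p = 0.016 by edgeR), a call lost in 7 of 21 alternative analyses, and HIPK3 at 89.9% (−0.15, adjusted p = 0.1 by edgeR). Thus 4 of the 5 genes were called lower in PC3, where 82% of all genes were called different between the lines and 40.7% lower in PC3.

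After siLARP4A the 5 genes did not move together. In PC3, 4 of 5 were called at an adjusted p under 0.05, against 36.4% of all genes, and in MG63 3 of 5, against 26.8%. The siLARP4A and siLARP4B comparisons share the siControl libraries of each line, so an error in those libraries enters both.

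GNB4 fell after siLARP4A in both lines, to 72.3% of siControl in PC3 (log2 fold change −0.47, SE 0.082, adjusted p = 1e-04, edgeR) and to 72.0% in MG63 (−0.47, SE 0.071, adjusted p = 2.5e-05). It was the one gene of the 5 that was lower after both siRNAs, though its fall after siLARP4A was far smaller. HIPK3 rose, to 142% of siControl in PC3 (0.51, SE 0.082, adjusted p = 3.9e-05, edgeR) and to 130% in MG63 (0.38, SE 0.084, adjusted p = 0.0016). DPYSL3 rose to 123% in PC3 (0.30, SE 0.050, adjusted p = 5.3e-05, edgeR) and to 144% in MG63 (0.53, SE 0.048, adjusted p = 2.7e-08). Each of these 6 calls held in all 21 alternative analyses.

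POGLUT3 was not called in either line after siLARP4A (log2 fold change 0.09, 95% interval −0.07 to 0.24, in PC3 and −0.06, interval −0.19 to 0.08, in MG63; adjusted p = 0.39 and 0.57, edgeR). Its PC3 value rested on the library taken: 0.20 (adjusted p = 0.03) without siLARP4A replicate 2 and −0.05 without replicate 1. SNX15 was not called in MG63 (−0.02, interval −0.21 to 0.16, adjusted p = 0.91, edgeR). In PC3 SNX15 was 0.23 higher on the log2 scale (adjusted p = 0.038, edgeR), a call lost in 16 of 21 alternatives, with adjusted p between 0.021 and 0.21.

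The siLARP4A effect was compared between the lines with the interaction term, which called 11.2% of all genes. DPYSL3 rose less in PC3 than in MG63, by a difference of −0.23 on the log2 scale (SE 0.069, adjusted p = 0.033, edgeR). That call was lost in 5 of 21 alternatives, each of them leaving out 1 library of the contrast. The other 4 genes gave differences of 0.01 for GNB4 (95% interval −0.22 to 0.23), 0.13 for HIPK3 (−0.12 to 0.37), 0.15 for POGLUT3 (−0.06 to 0.35) and 0.25 for SNX15 (−0.003 to 0.51). None of the 4 passed the threshold (adjusted p = 1, 0.56, 0.40 and 0.21, edgeR).

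**Figure D3:**
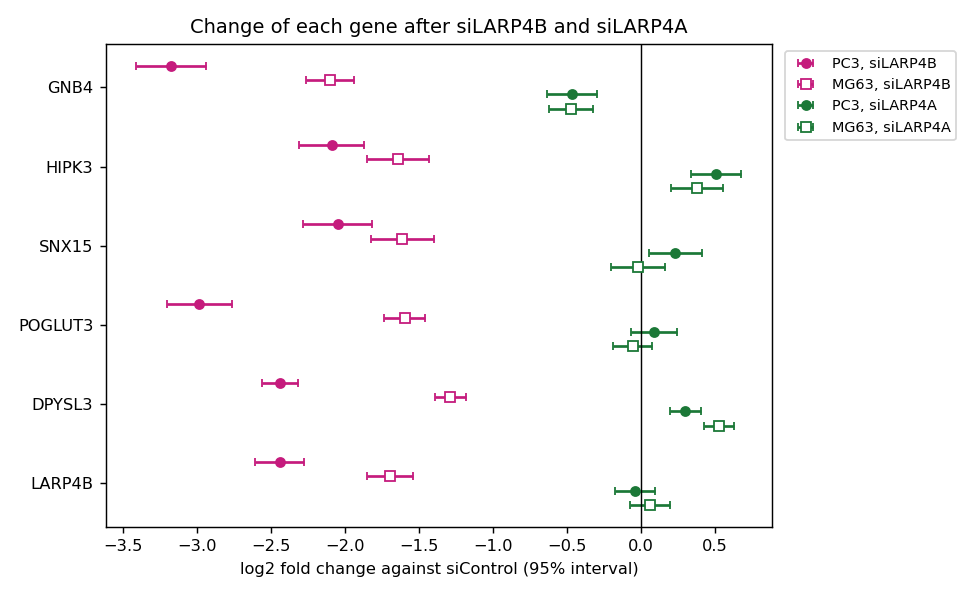
Log2 fold change against siControl (horizontal axis) of the 5 genes and LARP4B after siLARP4B (pink) and siLARP4A (green) in PC3 (filled circles) and MG63 (open squares); bars are 95% intervals from the edgeR fit. All pink points lie at −1.29 or lower, while the green points run from −0.47 for GNB4 to 0.53 for DPYSL3.

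The other annotated transcript models of these genes gave like values, though models of a gene share most of their fragments. As a log2 ratio of mean FPM, the count scaled to the library total, after siLARP4B, the 4 models of HIPK3 ran from −2.10 to −2.07 in PC3 and from −1.67 to −1.62 in MG63. The 3 models of POGLUT3 ran from −3.00 to −2.97 and from −1.62 to −1.61. The 2 models of DPYSL3 gave −2.44 and −2.42 in PC3 and −1.31 in MG63, and the 2 of SNX15 gave −2.05 and −1.99 in PC3 and −1.63 in MG63. GNB4 had a single model.

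Relatives of the 5 genes, taken by family, moved in both directions after siLARP4B, which called 24.8% of all genes higher in PC3 and 18% in MG63. Of 12 other G protein beta and gamma genes tested, 5 were called higher in PC3 and 7 were not called, and in MG63 6 were called higher and 1 lower. Their median log2 fold change was 0.19 in both lines. GNG2, a gamma subunit, rose by 1.33 in PC3 (adjusted p = 2.9e-11, edgeR) and by 0.72 in MG63 (adjusted p = 1.2e-05), and GNG7, another, by 1.2 (adjusted p = 9.7e-07) and 0.91 (adjusted p = 0.035). After siLARP4A, the gamma subunit GNG12 fell by 1.41 in PC3 (adjusted p = 1e-12, edgeR) and by 0.76 in MG63 (adjusted p = 6.2e-09).

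Of 2 other homeodomain-interacting kinases tested, HIPK2 fell by 1.13 on the log2 scale in PC3 after siLARP4B (adjusted p = 3.3e-10, edgeR) and HIPK1 by 0.35 (adjusted p = 0.0015). In MG63 HIPK1 rose by 0.24 (adjusted p = 0.031, edgeR) and HIPK2 was not called. After siLARP4A in PC3, HIPK1 and HIPK2 fell by 0.43 and 0.47 (adjusted p = 0.00028 and 9.5e-05, edgeR), opposite to HIPK3.

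Of 26 other sorting nexins, 8 were called higher and 4 lower after siLARP4B in each line, with medians of 0.06 in PC3 and 0.09 in MG63. SNX13 fell by 0.63 in PC3 (adjusted p = 8.9e-07, edgeR) and by 0.64 in MG63 (adjusted p = 1.1e-05), and SNX16 rose by 0.48 (adjusted p = 0.0037) and 0.73 (adjusted p = 0.0014). After siLARP4A, SNX4, a nexin of endosomal recycling, fell by 0.87 in PC3 (adjusted p = 1.6e-07, edgeR) and by 0.98 in MG63 (adjusted p = 1.6e-08).

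Of 11 other genes of EGF-repeat O-glycosylation, 8 were called higher and 1 lower in PC3 after siLARP4B, and 6 higher and 2 lower in MG63. POGLUT2, the closest relative of POGLUT3, fell by 0.44 in PC3 (adjusted p = 0.00036, edgeR) and by 0.75 in MG63 (adjusted p = 5.1e-07). MFNG, a Fringe enzyme, had the largest change of the family in PC3, a rise of 1.65 with a wide error (SE 0.526, adjusted p = 0.014, edgeR), and was not called in MG63 (0.35, adjusted p = 0.47). LFNG, another Fringe enzyme that extends O-fucose on Notch, rose by 0.89 in PC3 (adjusted p = 5.5e-09, edgeR) and fell by 0.85 in MG63 (adjusted p = 5.6e-05). Of 3 other collapsin response mediator genes, DPYSL4 fell by 0.33 in PC3 after siLARP4B (adjusted p = 0.011, edgeR) and DPYSL2 rose by 0.25 in MG63 (adjusted p = 0.007). After siLARP4A, DPYSL2 fell by 0.85 in PC3 and by 0.33 in MG63 (adjusted p = 4.1e-07 and 0.0012, edgeR), where DPYSL3 rose.

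Over the 12 libraries, each centred on siControl of its line, the 5 genes correlated with each other at a Pearson r of 0.927 to 0.981, a description of profiles that were all chosen for low siLARP4B libraries. Besides the 5, 18 genes of at least 5 FPKM had a log2 fold change of −1 or lower in both lines. They were taken for the same fall, which by itself gives a high r; among them the closest to their mean profile was LARP4B itself, at r = 0.995. CIAO2A, of cytosolic iron-sulphur assembly, followed at 0.992, then the Golgi golgin GOLGA4 at 0.991, GALNT7 at 0.987 and EXOSC3 at 0.986.

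The 3′ UTR words were read over 13510 tested genes with an annotated 3′ UTR, of median length 1258 bases. For each of 15952 words of 7 bases held by at least 100 genes, the median log2 fold change of genes with the word was set against that of genes without it. After siLARP4B in PC3 the word AGGTGAA, held by 1681 genes (12.4%), ranked lowest, at −0.168, and GGTTATT, held by 1485 genes (10.99%), ranked 2nd, at −0.156. The lowest 0.1% of words began at −0.101. In MG63, whose libraries were not used to pick them, AGGTGAA ranked 2nd at −0.110 and GGTTATT 44th at −0.058. After siLARP4A the same words gave 0.034 and 0.032 in PC3 and 0.040 and 0.029 in MG63, close to the median of all words there (0.039 and 0.036).

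Some of the other low-ranking words overlapped these in letters. GGTGAAT, shifted by 1 base from AGGTGAA, ranked 3rd in PC3 and 16th in MG63, and AAGGTGA ranked 7th and 4th. CGGTTAT, shifted by 1 base from GGTTATT, ranked 17th and 5th. The lowest word of MG63, CCGGTTA (−0.114, 116 genes), shifted by 2 bases from GGTTATT, ranked 4441st in PC3 (−0.039). Other words ranked low in 1 line and far from it in the other: TCGAGTA was 4th in PC3 and 2309th in MG63, and TACGGTC was 3rd in MG63 and 5923rd in PC3. Of the 20 lowest words of PC3, 15 lay below 0 in MG63, where 35.3% of all words did. Read the other way, 15 of the 20 lowest words of MG63 lay below 0 in PC3, where 67.3% of all words did, so that direction is close to the share of all words.

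**Figure D4:**
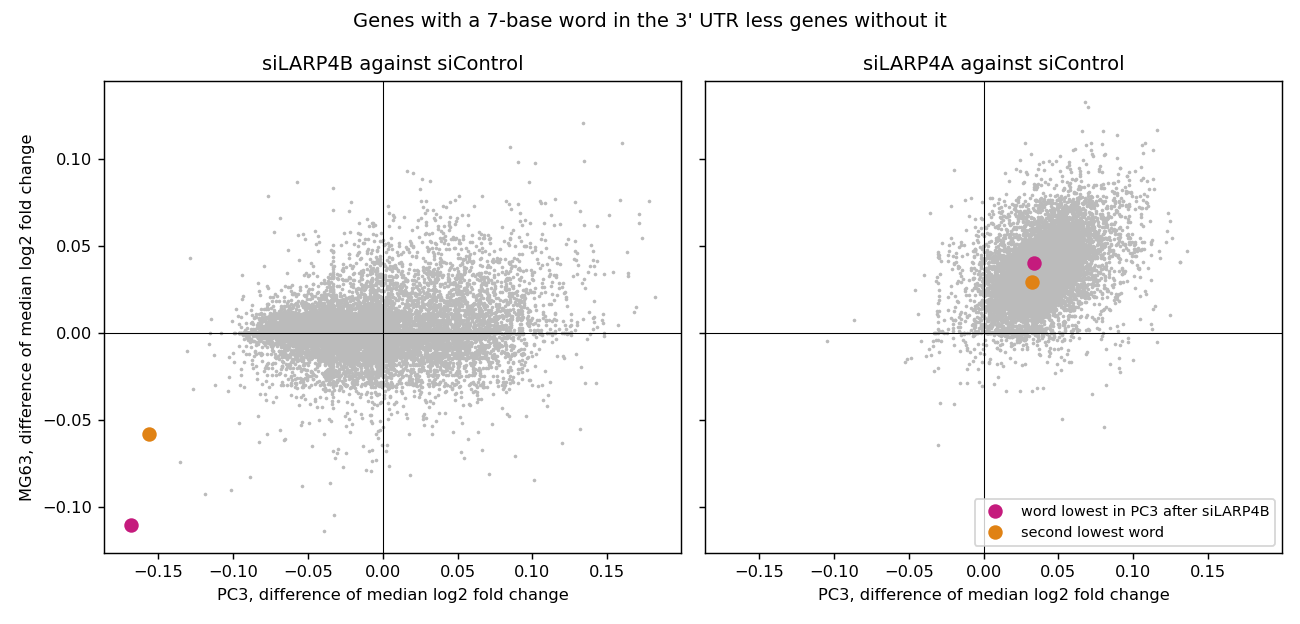
Each point is one of 15952 words of 7 bases: the median log2 fold change of genes with the word in the 3′ UTR less that of genes without it, in PC3 (horizontal axis) and MG63 (vertical axis), after siLARP4B (left) and siLARP4A (right). The pink word (−0.168 in PC3, −0.110 in MG63) and the orange word (−0.156, −0.058) lie apart at the lower left for siLARP4B and inside the cloud for siLARP4A.

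The lower median was present in each siLARP4B library taken alone. The words were picked from the PC3 libraries, so low values there follow from that choice. Only the MG63 libraries were not used for it. Against the siControl mean of the same line, AGGTGAA gave −0.180 and −0.162 in the PC3 siLARP4B libraries and −0.126 and −0.097 in those of MG63. The siLARP4A libraries gave 0.073 and 0.006 in PC3 and 0.040 and 0.026 in MG63, all above those of siLARP4B. The share of all words with libraries separated in this way was not counted. The median of all words was also lower after siLARP4B than after siLARP4A. It was −0.016 against 0.039 in PC3 and 0.0 against 0.036 in MG63. For GGTTATT the siLARP4B values were −0.168 and −0.146 in PC3 and −0.082 and −0.019 in MG63, and one siLARP4A library of PC3, at −0.016, came close to the weakest of them.

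Genes with more copies of AGGTGAA had lower medians after siLARP4B, though 1 and 2 copies were nearly level in MG63. In PC3 the median log2 fold change was 0.053 for the 11829 genes without it, −0.10 for the 1433 genes with 1 copy, −0.189 for the 208 with 2 and −0.259 for the 40 with at least 3. In MG63 the same classes gave 0.011, −0.097, −0.103 and −0.234. The median 3′ UTR length moved with the copies, from 1075 bases without the word to 2969 with 1 and 7415 with at least 3. After subtracting the median change of genes in the same bin of 3′ UTR length and of A+T share (10 bins each), AGGTGAA still ranked lowest in PC3, at −0.125, and 3rd in MG63, at −0.111. GGTTATT then ranked 5th (−0.096) and 31st (−0.058). Those ranks are for presence of a word, and the copy classes were not adjusted in this way. By copies, the same classes of GGTTATT gave 0.052, −0.095, −0.179 and −0.212 in PC3. In MG63 they gave 0.005, −0.050, −0.083 and 0.053, so the 35 genes with at least 3 copies were not lower there. These shifts of a median are far smaller than the falls of the 5 genes.

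**Figure D5:**
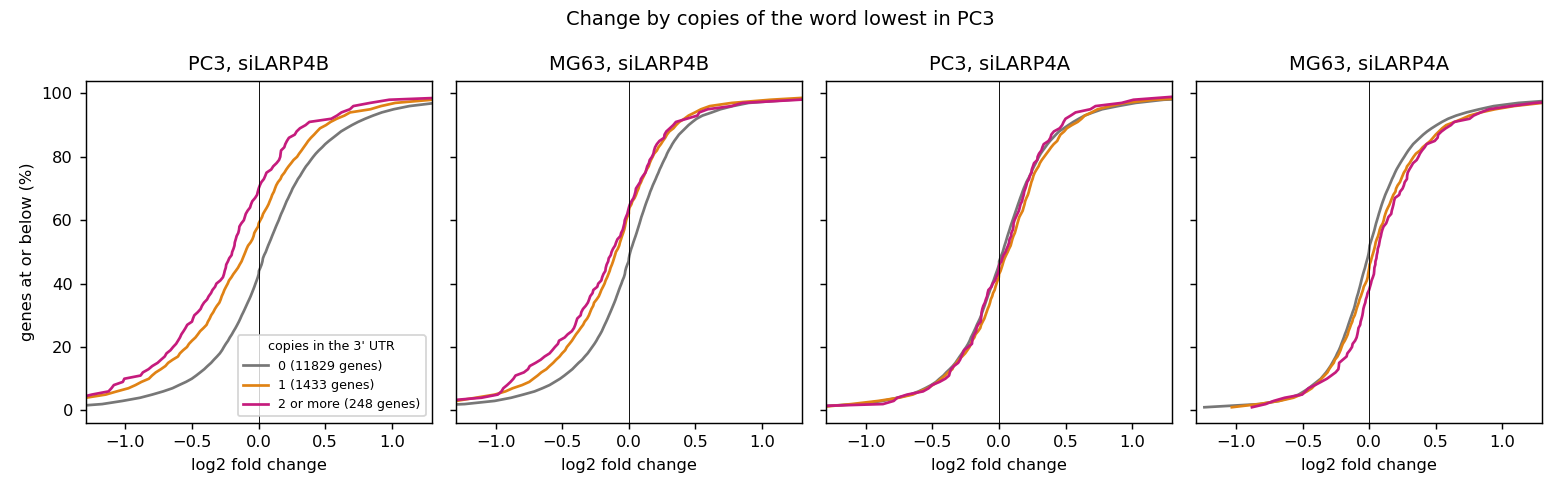
Share of genes (vertical axis, %) at or below a given log2 fold change (horizontal axis), for genes with 0, 1 or at least 2 copies of the word AGGTGAA in the 3′ UTR, in the 4 siRNA comparisons. The curves for 1 copy (1433 genes) and at least 2 copies (248 genes) lie to the left of the 11829 genes without it in both siLARP4B panels; in the siLARP4A panels their medians, 0.065 and 0.048 in PC3 and 0.031 and 0.062 in MG63, are not below those without the word (0.027 and −0.003).

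Among the 5 genes, 3 held AGGTGAA in the 3′ UTR (GNB4, SNX15 and POGLUT3), 2 held GGTTATT (GNB4 and DPYSL3) and 4 held either, as in the sites printed above; HIPK3 held neither. The shares over all 13510 genes were 12.4%, 10.99% and 20.7%, but the 5 genes have a median 3′ UTR of 3223 bases against 1258, and in their own bins of length AGGTGAA was held by 4.66% to 39.1% of genes. The 6-base AGGTGA was present in 5 of 5, against 33.6% of all genes. No share within bins of 3′ UTR length was taken for this shorter word, for GGTTATT or for either word. The part of 3′ UTR length in those contrasts with all genes was therefore not tested. Of the other 17 genes with a log2 fold change of −1 or lower in both lines and at least 5 FPKM, leaving out LARP4B, 10 held AGGTGAA (58.8%), 5 held GGTTATT (29.4%) and 13 held either (76.5%), with a median 3′ UTR of 1279 bases. These 17 genes were chosen by the same fall and were among the genes whose medians ranked the words, so their shares are no independent reading. EXOSC3, GALNT7, GOLGA4, MKNK2 and SRPRA held AGGTGAA and CIAO2A held GGTTATT. A word match is a description of sequence and does not show that a site is used. Whether the siLARP4B siRNA carries a seed that pairs with either word was not tested, since its sequence is not given in the sources used here.

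Longer stretches shared with the LARP4B transcript, which a fully paired siRNA would need, were also looked for. SNX15, POGLUT3 and DPYSL3 shared at most 13 bases in a row with it, the median of 13660 genes. The runs of GNB4 and HIPK3 were 17 and 19 bases, reached by 20% and 4.71% of genes, and each was mostly a stretch of T, 15 and 14 bases long. These runs describe the transcripts only. Whether the siRNA itself pairs with any of the 5 genes was not tested, since its sequence is not given in the sources used here.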

How the data were processed

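Poly(A) RNA sequencing of 12 libraries was analysed from 1 deposited table per library. Per the file headers, these list fragment counts, FPM and FPKM by transcript model. The deposited counts are whole numbers. The deposited FPM signal is the count scaled to a library total, and the deposited FPKM is that signal divided by mRNA length. A fragment in a shared exon counts in each model, so FPM sums to 3198732 to 3448919 per library. HISAT2, featureCounts, edgeR and hg38 are named in the submitters' processing notes; strand handling and the annotation are not given in the sources used here. One library, PC3 siControl replicate 2, has a further deduplicated table, used only as an alternative.

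Symbols at several loci (1814) were left out, and for each of the other 26464 the model with the most fragments was used. Counts were tested with edgeR 4.0.16 (quasi-likelihood F-test, TMM, default expression filter, 6 group means fitted to the 12 libraries at once; R 4.3.3), two-sided, with Benjamini-Hochberg adjustment over 15683 genes and a threshold of 0.05. The biological coefficient of variation was 4.22%. With groups of 2, each gene's spread leans on that of other genes, and intervals are narrower than 2 libraries alone would give. Alternatives used DESeq2 1.42.0, limma 3.58.1 on log2(FPKM + 1) or log2(FPKM + 0.1), other scaling, filters and models, a replicate block, and each library left out. Scripts were tested on simulated data.

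For 3′ UTRs, 18202 symbols had a GENCODE release 29 transcript, 327 symbols being matched through a synonym. Words were searched on the mRNA strand only, overlaps allowed, and held by at least 100 genes with a 3′ UTR of at least 20 bases.

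The 5 genes, the gene families, the markers and the likeness rule were chosen with earlier results of these data known. Named relatives are among those past the threshold with the largest changes of their family in at least 1 comparison, up to 2 in each, and are then given in both lines.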

Additional observations from a re-analysis of the deposited data

Results flagged for a closer look

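Groups of 2 libraries are too small for a search for single outlying samples, so only differences between the lines were looked for. The siLARP4A effect on DPYSL3 differed between PC3 and MG63 by −0.229 on the log2 scale (adjusted p = 0.033, interaction term in edgeR): the rise was 0.30 in PC3 and 0.53 in MG63. The effects on the targeted genes differed as well. LARP4 fell further after siLARP4A in PC3 than in MG63, by −1.02 (adjusted p = 1.1e-06, edgeR). LARP4B fell further after siLARP4B in PC3, by −0.747 (adjusted p = 4.1e-05, edgeR). After siLARP4B, LARP4 was 0.43 higher than siControl in MG63 (adjusted p = 8.4e-06, edgeR) and −0.03 in PC3 (adjusted p = 0.71), a difference of −0.455 (adjusted p = 0.00024). The 5 genes fell further in PC3 after siLARP4B too, in the same libraries where LARP4B did, and the part of the targeted gene's depth of fall in that was not tested.

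Relatives of the 5 genes differed between the lines in the same test. After siLARP4B the PC3 effect less the MG63 effect was 1.737 for LFNG (adjusted p = 5.6e-08, edgeR), −1.371 for HIPK2 (1.1e-07), 0.614 for GNG2 (0.0017), −0.59 for HIPK1 (0.00077) and −0.448 for DPYSL4 (0.016). After siLARP4A it was −0.693 for HIPK2 (adjusted p = 0.0013, edgeR), −0.649 for GNG12 (5.8e-05), −0.517 for DPYSL2 (0.0064) and −0.422 for HIPK1 (0.024). Of 19 such tests of relatives, ARL2 and its readthrough, 9 passed the threshold. Most had been picked for a large change in a line. Over all genes the siLARP4B term called 26.8% and the siLARP4A term 11.2%.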

How the results depend on the processing

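The falls of the 5 genes after siLARP4B kept their direction in all 21 alternatives, between −3.43 and −1.23. Since the genes were chosen for large falls in these same libraries, the kept direction is no separate check. The smallest falls in PC3 came from limma on log2(FPKM + 1). Counts of called genes stayed within 1.5 times in all alternatives but these: MG63 siLARP4A, 4208 genes, gave 2696 to 4764 with a library left out, the low values (up to 2702) without either MG63 siControl library or siLARP4A replicate 1, and the siLARP4A difference between lines, 1757 genes, gave 1049 to 2034, with up to 1137 without PC3 siControl replicate 1, either MG63 siControl library or MG63 siLARP4A replicate 2. The split of that difference, 900 higher and 857 lower, was 705 and 1275 without the expression filter, 529 and 939 with the deduplicated table, 530 and 741 with DESeq2, and from 361 and 701 (without siControl replicate 1) to 716 and 1209 (siLARP4B replicate 1) with an MG63 library left out. For the siLARP4B difference, 1951 and 2254, it was 1610 and 2995 without the filter, 1256 and 2024 with DESeq2 and 1148 and 2140 to 1518 and 2675 with MG63 siControl or siLARP4A libraries or siLARP4B replicate 2 left out. With limma the siLARP4B difference had more genes higher than lower, 2631 and 2200 on log2(FPKM + 1) and 2180 and 1951 on log2(FPKM + 0.1). The siLARP4A split in PC3, 3059 higher and 2656 lower, turned in several alternatives. Among these it was 2690 and 3002 without the filter and 2130 and 2251 with DESeq2. For siLARP4B in PC3 the split was 3893 higher and 3271 lower. It turned to 3289 and 3743 without the filter, 2725 and 2910 with DESeq2, and 3230 and 3553 with the deduplicated table. With only the libraries of the contrast it was 3676 and 4008. It also turned with an MG63 library left out. The other alternatives kept more genes higher than lower. Leaving a library out leaves an arm of 1 sample, assumed to vary like the other groups.

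Values near 0 changed sign. The GNB4 difference between lines after siLARP4A (0.006) was −0.019 with DESeq2 size factors, −0.021 with DESeq2, −0.043 without the filter, −0.018 with limma on log2(FPKM + 0.1), −0.054 with the deduplicated table, and −0.117 to 0.107 with a library left out. HIPK3 between the siControl groups was 0.026 and 0.031 with limma on log2(FPKM + 1) and log2(FPKM + 0.1), where the median of all genes moved to 0.114 and 0.171. With a library left out, POGLUT3 after siLARP4A ran from −0.046 (without siLARP4A replicate 1) to 0.199 in PC3 and from −0.095 to 0.002 in MG63, and SNX15 in MG63 from −0.099 to 0.07; the signs turned without siLARP4A replicate 2 for POGLUT3 and replicate 1 for SNX15. The cause was not tested.

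AGGTGAA stayed below 0 in every alternative reading. It was picked as the lowest word in PC3, where 67.3% of all words lay below 0, so the sign says little there. In PC3 (−0.168) AGGTGAA gave −0.125 within bins of 3′ UTR length and A+T share, −0.093 in coding sequence, −0.092 as 6 bases and −0.242 as 8. In MG63 (−0.110) it gave −0.051 in coding sequence, −0.071 as 6 bases, −0.145 as 8 and −0.138 in genes of at least 5 FPKM. The word of 8 bases was picked for the lowest PC3 value among the words that extend AGGTGAA by a base. That choice favoured a low value in PC3, so −0.242 is no separate check there, and −0.145 is for the same picked word. GGTTATT in PC3 (−0.156) gave −0.096 within bins and −0.105 as 6 bases.

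Same-numbered replicates did not deviate together (r −0.023 to 0.046), so the numbers do not pair the samples. With a replicate block, 5557 genes were called for siLARP4A in PC3, 4050 in MG63 and 1628 for their difference, 6990 and 5306 for siLARP4B and 4061 for its difference, and 12305 between the siControl groups; no call of the 5 genes changed. SNX15 had the fewest fragments of the 5 over the 12 libraries, 4093.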
